A study of Mus musculus with 6 samples.

Results

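The set described here is 10 long noncoding RNA genes, Malat1, Meg3, Miat, Snhg11, Snhg14, Neat1, Rian, Mirg, Peg13 and Kcnq1ot1, which brain tissue is known to express. They were taken by gene name from the table of transcripts, where they account for 10 of 47729 genes and 78 of 115220 transcripts. Each transcript has a value in FPKM (fragments scaled to the length of the transcript in kilobases and to how many fragments its library mapped, a level per length), and a gene total is the sum over the transcripts of one gene. Malat1 was the only member above 100 FPKM on average. Miat and Mirg were between 1 and 10 FPKM, and Neat1 and Kcnq1ot1 were under 1 FPKM in every library, so 6 of the 10 were abundant in the sense of a mean of at least 10 FPKM.

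RNAseq of RNA on tagged ribosomes was done in 3 Ctrl and 3 Gsk3sKO libraries from the medial prefrontal cortex (mPFC) of adult male C57BL/6 mice. Both groups carried the same alleles: a D2Cre bacterial artificial chromosome transgene, which drives Cre from dopamine D2 receptor sequences, a Cre-dependent Flag-Cas9 at Rosa26, and RiboTag, which puts a hemagglutinin tag on the ribosomal protein Rpl22 after Cre. Ctrl mice received AAV GFP, which carries no sgRNA, and Gsk3sKO mice received AAV Gsk3sgRNA/GFP, which targets the gene of the kinase GSK3β, in the mPFC. Tagged ribosomes were pulled down 3 weeks later and sequenced after a stranded total RNA preparation. The sources used here do not say whether a library is 1 mouse or a pool, so a p-value measures only the spread between these libraries. In such bulk samples, fewer cells of a type and less RNA per cell cannot be told apart.

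Long noncoding RNAs are transcribed and often spliced like messenger RNAs but are not known for a protein product, and many of them act in the nucleus. Malat1 and Neat1 are neighbors that build or occupy nuclear bodies: Malat1 sits in nuclear speckles, where splicing factors gather, and Neat1 is the scaffold of paraspeckles. Meg3, Rian, Mirg, Snhg14, Peg13 and Kcnq1ot1 are imprinted, that is, read from the chromosome of one parent only. Rian, Mirg and Snhg14 are also hosts, whose introns hold small nucleolar RNAs (snoRNAs) or microRNAs.

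The sequences that mark these RNAs are shown before their values, from the GENCODE M21 transcripts of GRCm38. The first pair is the stretch at the 3′ end of Malat1 and Neat1, which is known to fold into a triple helix that protects an end without a poly(A) tail. Capitals mark the A-rich motif AAAAGCAAAA and its reverse complement TTTTGCTTTT. The Malat1 stretch is chr19:5795982-5796075 and the Neat1 stretch chr19:5824708-5824801, both on the minus strand.
Malat1: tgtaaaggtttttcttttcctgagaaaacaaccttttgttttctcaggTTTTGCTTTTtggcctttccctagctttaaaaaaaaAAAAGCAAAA
Neat1: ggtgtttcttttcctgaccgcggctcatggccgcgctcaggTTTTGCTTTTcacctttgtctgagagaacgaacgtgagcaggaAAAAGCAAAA
The motif ends the annotated Neat1-201 with 0 bases after it, whereas the annotated Malat1-201 runs on for 292 bases, the part known to hold a tRNA-like RNA that is cut off. Its reverse complement starts 36 bases upstream of it in Malat1-201 and 43 bases upstream in Neat1-201. Among listed transcripts of 5000 to 10000 bases, 5.15% held AAAAGCAAAA, 4.83% held TTTTGCTTTT and 0.356% held both. Among those of 15000 to 25000 bases the shares were 13.0%, 4.63% and 0.926%.

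Miat is known for repeats of TACTAAC, the letters that splicing factor SF1 binds as an intron branch point. Miat-205, its longest transcript, held 6 copies on its own strand and 0 on the other. Of 765 listed transcripts of 8000 to 10000 bases, 18.4% held at least 1 copy and 0.261% held at least 6. The stretch with the last 3 copies, on the minus strand of chr5:112216753-112216810, is shown with the copies in capitals.
Miat: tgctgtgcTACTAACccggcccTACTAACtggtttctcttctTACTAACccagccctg
The highest transcript of the other members held at most 1 copy on its own strand, except Kcnq1ot1-201, which is 93092 bases long and held 4.

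Depth and cell content set the frame for all values. The steps between low values put the libraries at roughly 23500000 to 44800000 fragments, uncertain by a factor of 2 or more. From 4.32% (Ctrl replicate 1) to 22.2% (Ctrl replicate 3) of the low values lay within 0.01 of a whole step, so these depths are weakly founded. Gsk3b, the target, was at 35.6, 53.8 and 56.5 FPKM in Ctrl replicates 1 to 3. In Gsk3sKO replicates 1 to 3 it was at 36.9, 37.0 and 33.6 FPKM, so its RNA level overlapped between the labelled groups. Its log2 fold change was -0.40 (SE 0.19, adjusted p = 0.773 by limma). This is RNA and not protein: the paper reports staining in which most Flag-Cas9 cells of the mPFC lacked GSK3β after the sgRNA virus. The D2 neuron marker Drd2 was above 0 in each library (1.58 to 14.1 FPKM), while Adora2a was listed at 0 in Ctrl replicate 1. With Penk and Gpr6, 4 D2 neuron markers were tested and 0 were called. Each of the 4 had its lowest value in Ctrl replicate 1 and a log2 fold change above 0 (median 0.41). Of marker genes for other cells, 3 of 7 tested for oligodendrocytes (Cnp, Mag and Mog) and 2 of 7 for microglia (C1qa and C1qb) fell at an unadjusted p under 0.05 (limma). The share of all tested gene totals that fell was 5.2%. The summed oligodendrocyte markers ranged from 123 to 187 FPKM in Ctrl and from 130 to 170 FPKM in Gsk3sKO, and the microglial ones from 35.7 to 49.2 and from 28.9 to 38.4 FPKM. None of these 16 markers was at 0 in all libraries, so the pulldown held RNA of other cells. Of 8 astrocyte and 6 endothelial markers, 0 passed the test. Among 6 excitatory neuron markers 1 fell (Tbr1, log2 fold change -0.40, adjusted p = 0.726 by limma), and among 6 inhibitory ones 0 were called.

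No member gene total differed between the groups by the test used throughout, limma on log2(FPKM + 1) with a call at an unadjusted p under 0.05. Of the 10 members, 8 reached the mean of 1 FPKM required for the test, and 0 of these 8 were called, where 6.56% of all 12874 tested gene totals were. Their adjusted p ranged from 0.792 (Miat) to 0.963 (Peg13) by limma with Benjamini-Hochberg adjustment. Of the 8, 5 had a log2 fold change below 0, as 58.9% of all tested gene totals did, and their median was -0.13 beside -0.06 over all. The libraries of the groups overlapped for each of the 10 members, where 8.3% of the tested gene totals were lower and 3.71% higher without overlap.

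**Figure D1:**
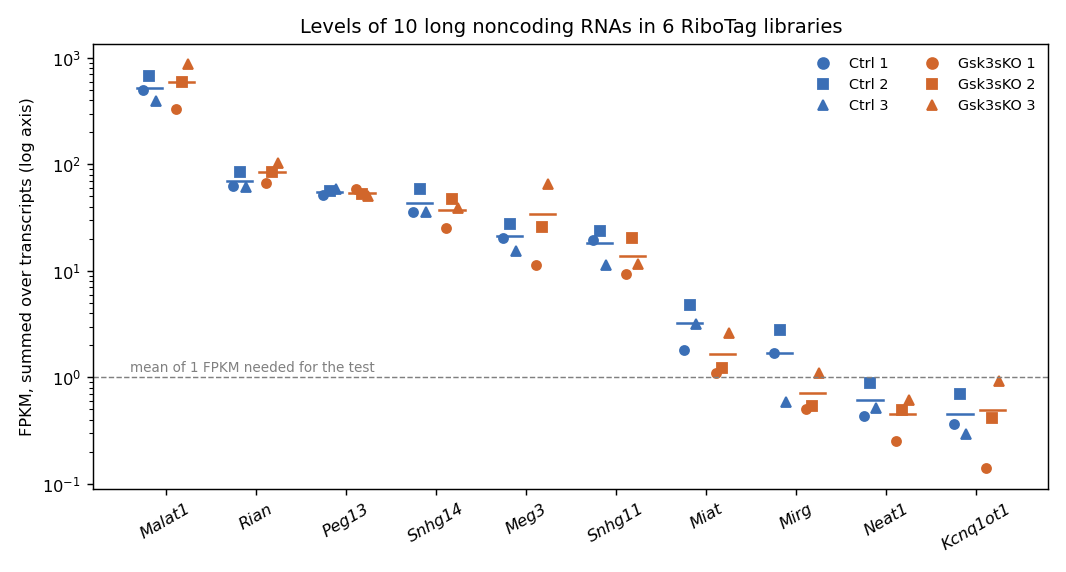
Gene totals in FPKM (log axis) of the 10 members in each of the 3 Ctrl (blue) and 3 Gsk3sKO (orange) libraries, with horizontal bars for the group means and a dashed line at 1 FPKM. The members span from 561 FPKM (Malat1) to 0.474 FPKM (Kcnq1ot1) on average, and for each of them the 2 groups overlap.

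Of the RNAs of nuclear bodies, Malat1 (ENSMUSG00000092341, chr19:5795690-5802672, minus strand) had the highest level. Its total was 505, 670 and 396 FPKM in Ctrl replicates 1 to 3 and 328, 589 and 874 FPKM in Gsk3sKO replicates 1 to 3. The lowest and the highest library both belonged to Gsk3sKO, with all of Ctrl in between. This gave a log2 fold change of 0.11 (SE 0.35, 95% CI -0.68 to 0.90, adjusted p = 0.961), and it turned negative without Gsk3sKO replicate 3 (-0.22) or Ctrl replicate 3 (-0.07). Malat1 ranked number 44 among all 47729 gene totals by mean. Its intronless transcript Malat1-201 (6983 bases) made up 72.6% ± 3.97 (SD, n = 3) of the total in Ctrl and 73.0% ± 2.52 in Gsk3sKO. ENSMUST00000173523, which M21 does not list, made up 24.7% and 24.3%.

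Neat1 (ENSMUSG00000092274, chr19:5824708-5845478, minus strand), the paraspeckle scaffold, lies close to Malat1 on the same strand at a far lower level per length. It was at 0.438, 0.893 and 0.513 FPKM in Ctrl, against 0.254, 0.490 and 0.618 FPKM in Gsk3sKO, all from Neat1-201 (20771 bases). Gsk3sKO replicate 1 was the lowest and Ctrl replicate 2 the highest, and the groups overlapped. Because the transcript is long, these values stand for roughly 220 to 590 fragments per library. Neat1 missed the level required for the test. The short models Neat1-202 and Neat1-203 were listed at 0 in all libraries.

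Miat (ENSMUSG00000097767, chr5:112213228-112229395, minus strand), the TACTAAC-bearing RNA, showed the lowest p of the members. Its total was 1.82, 4.77 and 3.14 FPKM in Ctrl, against 1.10, 1.22 and 2.61 FPKM in Gsk3sKO. Ctrl replicate 1 lay inside the range of Gsk3sKO, and the other Ctrl libraries lay above it. The fitted log2 fold change was -0.67 (SE 0.36, 95% CI -1.50 to 0.17, adjusted p = 0.792). Miat was called without Ctrl replicate 1 (-0.93) and without Gsk3sKO replicate 3 (-0.92), so the call rests on which library is left out. The repeat-bearing Miat-205 was at 1.82, 3.498 and 1.03 FPKM in Ctrl, against 1.01, 1.22 and 2.61 FPKM in Gsk3sKO (log2 fold change -0.23, SE 0.47, adjusted p = 0.956). In Ctrl replicate 3, 2.11 FPKM of the total came from the 284-base model Miat-204, which was listed at 0 in Ctrl replicate 1 and in all of Gsk3sKO.

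**Figure D2:**
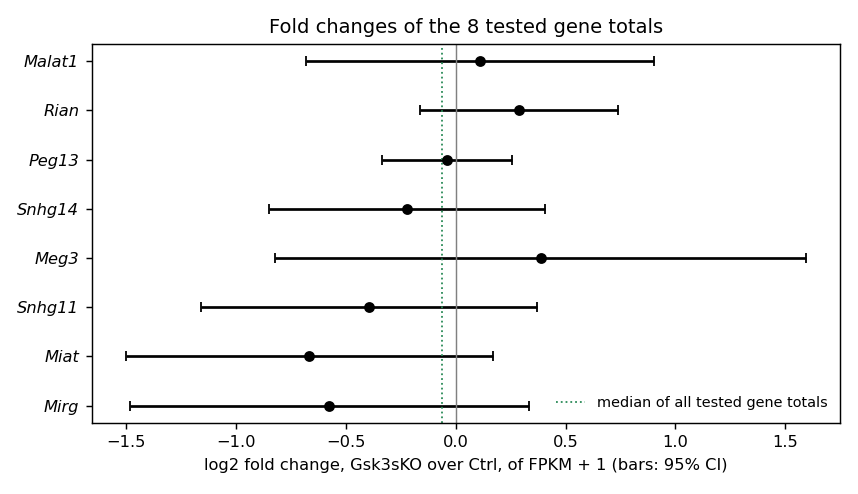
Log2 fold change of Gsk3sKO over Ctrl on the log2(FPKM + 1) scale for the 8 tested gene totals, ordered by level, with 95% CI from limma (n = 3 libraries per group). Each interval includes 0, from the narrow one of Peg13 (-0.34 to 0.26) to the wide one of Meg3 (-0.82 to 1.596), and the dotted line is the median of all tested gene totals (-0.06).

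Meg3, Rian and Mirg lie in this order on the plus strand of chromosome 12, in the Dlk1-Dio3 domain, where the maternal chromosome is known to express the noncoding RNAs and the paternal one the protein-coding genes. Meg3 (ENSMUSG00000021268, chr12:109541001-109571726), known as a regulator of imprinting and of p53 targets, was at 20.4, 27.5 and 15.5 FPKM in Ctrl, against 11.5, 25.9 and 66.1 FPKM in Gsk3sKO. Gsk3sKO replicate 1 was the lowest library and Gsk3sKO replicate 3 the highest. Its log2 fold change was 0.39 (SE 0.53, adjusted p = 0.916). Without Gsk3sKO replicate 1 it was 0.98 and called, and without Gsk3sKO replicate 3 it turned to -0.24 and was not.

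The highest value of Meg3 came mostly from a single model. Meg3-206 (5971 bases, 7 exons) was at 6.31, 0.750 and 6.39 FPKM in Ctrl, against 0.136, 0.00578 and 41.9 FPKM in Gsk3sKO, so that Gsk3sKO held both the lowest and the highest values. The total without this model was 14.1, 26.7 and 9.15 FPKM in Ctrl, against 11.3, 25.9 and 24.2 FPKM in Gsk3sKO, so the libraries still spread widely and overlapped between the groups. Meg3-209 (14548 bases), the transcript with the highest mean, was at 9.01, 11.9 and 6.57 FPKM in Ctrl, against 6.34, 20.7 and 16.8 FPKM in Gsk3sKO (log2 fold change 0.51, SE 0.45, adjusted p = 0.890). Meg3-205 averaged 4.31 FPKM with a log2 fold change of 0.02 (SE 0.58, adjusted p = 0.998).

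An exon of Meg3-206 contains the microRNA gene Mir1906-1 (chr12:109544541-109544620), whose mature sequence (RefSeq, GRCm38.p6, chr12:109544588-109544609) is shown with its seed, bases 2 to 8, in capitals.
mmu-miR-1906: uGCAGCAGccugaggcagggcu
The row of this 80-base gene was at 0.0277, 0.0983 and 0.144 FPKM in Ctrl, at 0.105 and 0.116 FPKM in Gsk3sKO replicates 1 and 2, and at 40.7 FPKM in Gsk3sKO replicate 3. It was high in the library where Meg3-206 was high. The hairpin lies inside exons of 5 listed Meg3 transcripts, Meg3-201, Meg3-202, Meg3-205, Meg3-206 and Meg3-207, so reads of the host and of the hairpin row cannot be told apart here.

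Rian (ENSMUSG00000097451, chr12:109603940-109661716), host of a snoRNA cluster, was the second highest member. Its total was 62.7, 84.4 and 61.4 FPKM in Ctrl, against 67.4, 85.2 and 104 FPKM in Gsk3sKO. Ctrl replicate 2 lay inside the range of Gsk3sKO, above Gsk3sKO replicate 1. This gave a log2 fold change of 0.29 (SE 0.20, adjusted p = 0.825).

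Rian-211 (ENSMUST00000182737, 699 bases, 5 exons, chr12:109650685-109655890), the Rian transcript with the highest mean, was 1 of 3 member transcripts called. It was at 21.7, 29.6 and 19.9 FPKM in Ctrl, against 32.9, 30.2 and 44.9 FPKM in Gsk3sKO. All of Gsk3sKO lay above all of Ctrl, with a gap of under 1 FPKM between Ctrl replicate 2 and Gsk3sKO replicate 2. The fitted log2 fold change was 0.58 (SE 0.23, adjusted p = 0.842). The call was lost without Ctrl replicate 1 or 3, or Gsk3sKO replicate 1 or 3 (log2 fold change 0.42 to 0.64). Its bases are all in exons of other listed Rian transcripts, 97.9% of them in Rian-213 alone, so how the reads divide between models is an estimate. Rian-213 was at 15.1, 19.4 and 17.98 FPKM in Ctrl, against 17.1, 24.6 and 21.6 FPKM in Gsk3sKO (log2 fold change 0.25, SE 0.20, adjusted p = 0.890).

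**Figure D3:**
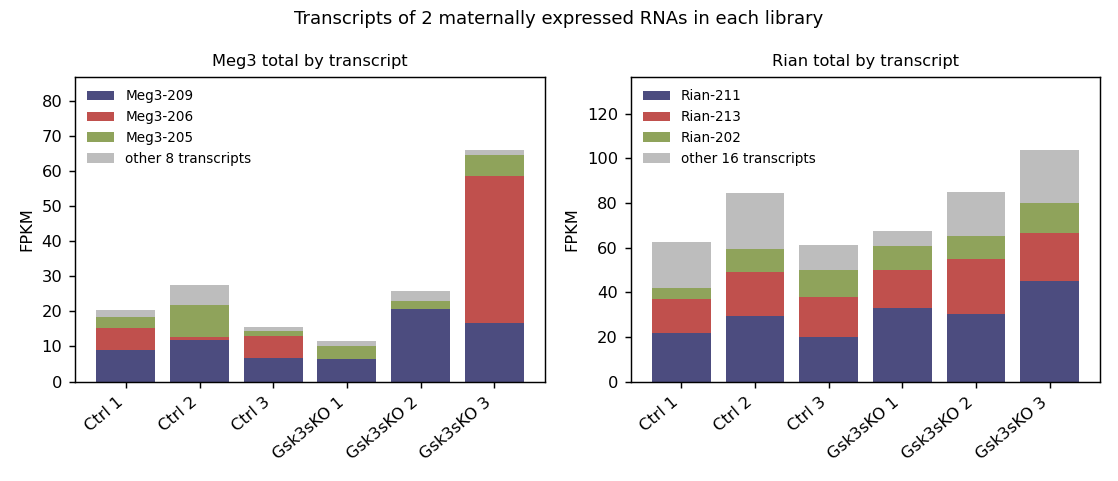
FPKM of Meg3 (left) and Rian (right) in each of the 6 libraries, stacked by transcript: the 3 with the highest mean in color and the rest in gray. Meg3-206 makes up 41.9 of the 66.1 FPKM of Meg3 in Gsk3sKO replicate 3, and Rian-211 is the largest part of Rian in each library.

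Mirg (ENSMUSG00000097391, chr12:109729764-109749460), host of a microRNA cluster, was at 1.68, 2.79 and 0.592 FPKM in Ctrl, against 0.510, 0.543 and 1.10 FPKM in Gsk3sKO. Ctrl replicates 1 and 2 lay above all of Gsk3sKO, and Ctrl replicate 3 lay inside its range. Its log2 fold change was -0.58 (SE 0.40, adjusted p = 0.830). Its total was spread thinly over 9 of 12 listed transcripts, none of which averaged 1 FPKM. The highest, Mirg-201, was at 0.773, 0.473 and 0.190 FPKM in Ctrl, against 0.255, 0.335 and 0.724 FPKM in Gsk3sKO, and Mirg-207 was listed at 0 in all of Gsk3sKO beside 0.633, 0.853 and 0.0979 FPKM in Ctrl.

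Snhg14 (ENSMUSG00000100826, chr7:59307924-59975759, minus strand) spans 667836 bases of the Snrpn-Ube3a domain. It is known as the paternal transcript that carries the snoRNA clusters lost in Prader-Willi syndrome and that runs antisense to Ube3a, the ubiquitin ligase gene of Angelman syndrome. Its total was 35.9, 59.0 and 35.8 FPKM in Ctrl, against 25.1, 47.7 and 39.3 FPKM in Gsk3sKO. Gsk3sKO replicate 1 was the lowest and Ctrl replicate 2 the highest, and the other Ctrl libraries lay below the other Gsk3sKO libraries. This gave a log2 fold change of -0.22 (SE 0.27, adjusted p = 0.909) and passed 0 without Ctrl replicate 2 or Gsk3sKO replicate 1 (0.01 and 0.03). The total joins models that lie far apart along the span. The 3 with the highest means were Snhg14-210 (6.82 FPKM, adjusted p = 0.890), Snhg14-203 (5.71 FPKM, adjusted p = 0.951) and Snhg14-211 (5.14 FPKM, adjusted p = 0.890), and Snhg14-201 made up 11.1% of the total (adjusted p = 0.992).

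All but Snhg14-202 and Snhg14-208 of the 11 Snhg14 models with a mean of at least 1 FPKM overlapped between the groups. Both of these were lower in Gsk3sKO, and neither had an adjusted p under 0.05 (limma). Snhg14-202 (ENSMUST00000185693, 734 bases, 6 exons, chr7:59619158-59874749) was at 8.63, 8.91 and 5.52 FPKM in Ctrl, and in Gsk3sKO at 0.0135 FPKM in replicate 1 and at 0 in replicates 2 and 3. It made up 18.2% ± 5.07 (SD, n = 3) of the Snhg14 total in Ctrl and 0.0179% ± 0.0310 in Gsk3sKO. The fitted log2 difference was -3.09 (SE 0.35, adjusted p = 0.131), a value that depends on the pseudocount since Gsk3sKO is at or near 0. The fit called it under each alternative in which it was tested except the one that requires a mean of 5 FPKM, where it drops out.

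A second model shares most of these bases and went the other way. Snhg14-214 (ENSMUST00000191191, 3991 bases, chr7:59666434-59678601) was at 0.1002, 0.447 and 0.133 FPKM in Ctrl, against 0.986, 2.07 and 1.99 FPKM in Gsk3sKO. Every Gsk3sKO library was above every Ctrl library, but the mean of 0.953 FPKM left it out of the test. Without the requirement on level its log2 fold change was 1.11 (SE 0.36, adjusted p = 0.742). Snhg14-202 has 591 of its 734 bases, in 4 of its 6 exons, inside exons of Snhg14-214. Multiplied by length and summed over both models, the values were 6.73, 8.32 and 4.58 FPKM times kilobases in Ctrl and 3.95, 8.24 and 7.94 in Gsk3sKO. These sums overlapped (exact permutation test, 2-sided, p = 1.0, where 0.1 is the smallest p that 3 against 3 libraries allow). The sum was chosen after the values of both models were seen. It counts all 3991 bases of Snhg14-214, of which 591 are shared, so it cannot show whether reads of the shared exons moved between the models. Per length, the mean of Snhg14-202 was 7.68 FPKM in Ctrl and 0.00449 FPKM in Gsk3sKO. That of Snhg14-214 was 0.227 and 1.68 FPKM, a smaller change.

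**Figure D4:**
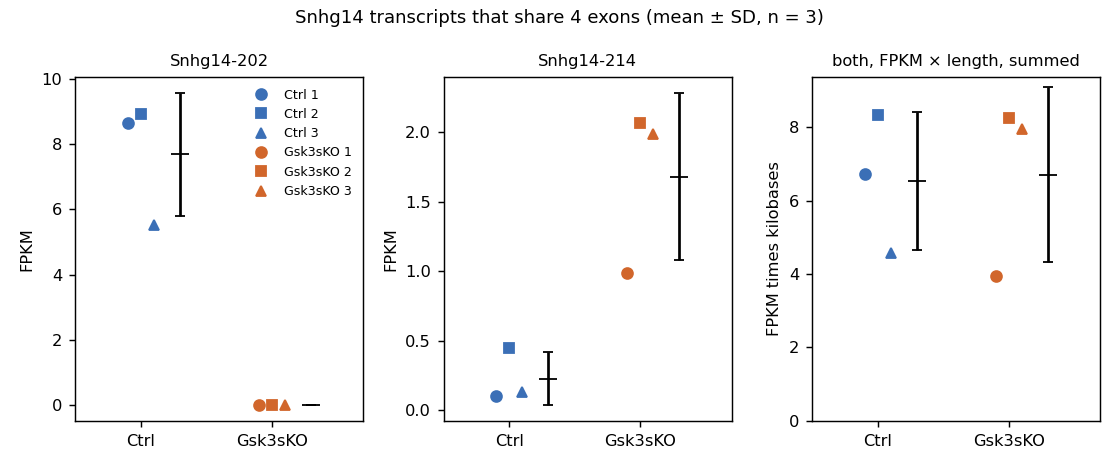
Snhg14-202 and Snhg14-214 in FPKM and, on the right, their values multiplied by length and summed, in FPKM times kilobases, for each library, with the mean ± SD of each group (n = 3). Snhg14-202 is at or near 0 in Gsk3sKO, Snhg14-214 is higher there, and the sums of the groups overlap (3.95 to 8.24 in Gsk3sKO, 4.58 to 8.32 in Ctrl). The sums cover all bases of both models, most of them not shared.

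What sets Snhg14-202 apart is its first and last exon, at chr7:59874730-59874749 and chr7:59619158-59619280. They are shown with exons 2 and 3, at chr7:59676338-59676484 and chr7:59673810-59673956, which both models hold and which are near-copies of each other. All letters are lower case because no motif was searched in them.
exon 1: taggtcacctgagttaaatg
exon 2: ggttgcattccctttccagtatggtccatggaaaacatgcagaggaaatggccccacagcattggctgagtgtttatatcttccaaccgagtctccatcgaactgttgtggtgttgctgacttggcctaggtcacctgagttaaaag
exon 3: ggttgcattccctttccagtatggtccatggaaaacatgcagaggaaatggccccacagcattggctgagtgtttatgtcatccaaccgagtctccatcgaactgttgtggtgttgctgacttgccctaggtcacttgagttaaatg
exon 6: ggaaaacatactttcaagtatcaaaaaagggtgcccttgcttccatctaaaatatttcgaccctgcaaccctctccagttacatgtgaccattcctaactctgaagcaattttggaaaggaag
Exons 2 and 3 are the same at 96.6% of their bases. The 20 bases of exon 1 occur in 3 other listed transcripts, so the 123 bases of exon 6, found in 0 others, are the part of Snhg14-202 that no other listed transcript holds.

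Snhg14-208 (ENSMUST00000188262, 687 bases, 8 exons, chr7:59445703-59453239) was the other Snhg14 transcript called. It was at 5.55, 8.99 and 4.11 FPKM in Ctrl, against 2.91, 2.81 and 2.34 FPKM in Gsk3sKO. All of Gsk3sKO lay below all of Ctrl, in a narrow range. The fitted log2 fold change was -0.92 (SE 0.34, adjusted p = 0.842). The call was lost when any library other than Ctrl replicate 3 was left out (log2 fold change -0.96 to -0.66). An exon of 46 bases, at chr7:59450830-59450875 for one copy, occurs 3 times in Snhg14-208 and 2 times in Snhg14-210, so reads of it have no single place.
repeated exon: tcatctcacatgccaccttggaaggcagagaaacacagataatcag
With Snhg14-202 and Rian-211 this makes 3 of 30 tested member transcripts called (2 lower, 1 higher), or 10%, where 5.56% of all 21584 tested transcripts were called (3.75% lower, 1.81% higher). The 3 called transcripts were also the 3 of 30 without overlap between the groups, where the share over all tested transcripts was 11.2%. No member transcript had an adjusted p under 0.05, nor did any transcript of the table.

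The introns and span of Snhg14 hold 208 snoRNA genes of the same strand in M21, which the table lists as genes of their own. These rows were chosen after the values were seen. Most are tandem copies of 2 lengths, 134 of 70 to 85 bases and 70 of 90 to 100 bases, and together they have 85 distinct sequences. The row with the highest mean (Gm23767), a near-copy of it (Gm23619) and the highest of the shorter ones (Gm25156) are shown, with capitals for the TGATGA (C box) and CTGA (D box) that mark box C/D snoRNAs. They lie at chr7:59708469-59708562, chr7:59804471-59804564 and chr7:59353283-59353361.
Gm23767: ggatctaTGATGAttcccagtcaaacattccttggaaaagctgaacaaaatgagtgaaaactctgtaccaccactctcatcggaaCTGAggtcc
Gm23619: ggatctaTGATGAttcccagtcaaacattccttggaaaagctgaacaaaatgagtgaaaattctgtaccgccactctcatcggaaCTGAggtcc
Gm25156: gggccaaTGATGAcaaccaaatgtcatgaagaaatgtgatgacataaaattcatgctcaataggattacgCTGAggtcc
Both boxes, TGATGA within the first 25 bases and CTGA starting within the last 20, were present on the gene's strand in 90.9% of the 208 and in 9.31% of 1299 snoRNA genes elsewhere, and on the opposite strand in 0 of either. Gm23767 and Gm23619 differ at 2 bases, so reads of one copy can be counted for another and the sum over copies is firmer than any single row.

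The summed FPKM of the snoRNA genes inside Snhg14 was 799, 880 and 579 in Ctrl and 487, 219 and 337 in Gsk3sKO. Every Gsk3sKO library was below every Ctrl library, with a mean of 348 against 752 FPKM (exact permutation test, 2-sided, p = 0.1, the smallest possible). Of the 208, 63 had a mean of at least 1 FPKM. Of these 63, 34 fell and 1 rose at an unadjusted p under 0.05 (limma), and 19 were lower without overlap, where 5.2% of all tested gene totals fell and 8.3% were lower without overlap. Their median log2 fold change was -1.19. Gm23767 had 135, 115 and 141 FPKM in Ctrl, against 72.3, 51.7 and 92.7 in Gsk3sKO (log2 fold change -0.88, SE 0.21, adjusted p = 0.488), and Gm23619 had 49.2, 36.6 and 24.95 FPKM, against 22.7, 12.7 and 11.4.

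The lower level was shared by snoRNA genes outside the members. The 1284 listed snoRNA genes elsewhere summed to 2973, 4712 and 2083 FPKM in Ctrl, against 1509, 1395 and 1341 FPKM in Gsk3sKO, also without overlap. Of the 162 with a mean of at least 1 FPKM, 59 fell and 2 rose (limma, unadjusted p under 0.05), 42 were lower without overlap, and the median log2 fold change was -0.95. A single gene, Gm23935, held 24.3, 24.9 and 12.9% of all FPKM in Ctrl, against 13.4, 12.2 and 7.8% in Gsk3sKO. How this difference in the make-up of the libraries bears on the snoRNA sums was not tested. Whether the snoRNAs of Snhg14 fell more than the others was not tested either. The libraries of the Snhg14 total overlapped between the groups. Its log2 fold change was -0.22 (95% CI -0.85 to 0.40, limma), so whether the host fell with its snoRNAs cannot be told.

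**Figure D5:**
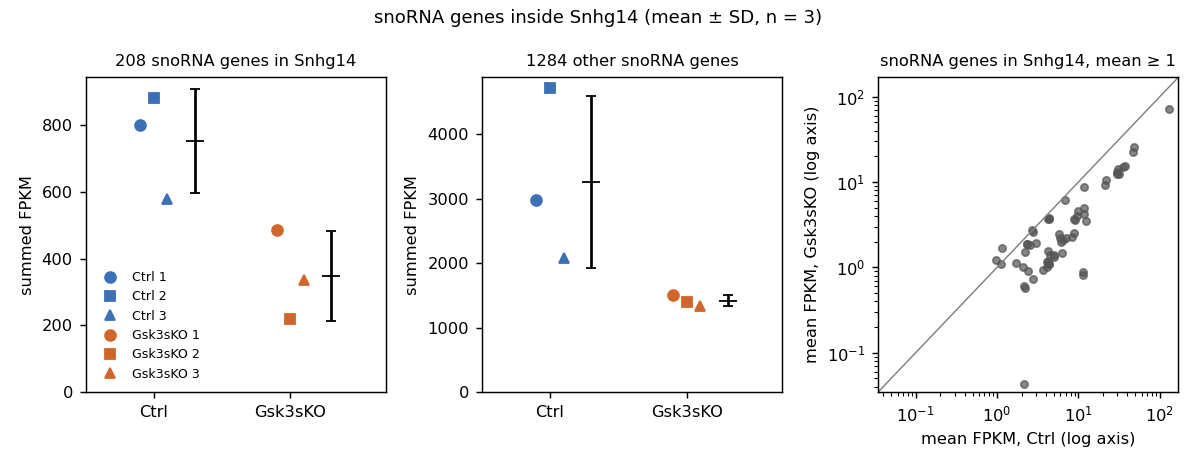
Summed FPKM of the snoRNA genes inside Snhg14 (left) and of the other listed snoRNA genes (middle) in each library, with the mean ± SD of each group (n = 3), and on the right the mean FPKM in Gsk3sKO against Ctrl (log axes) for the 60 of 63 snoRNA genes inside Snhg14 with a mean of at least 1 FPKM that lie above 0 in both groups. In both sums the Gsk3sKO libraries lie below the Ctrl libraries, and 57 of the 60 points lie below the diagonal of equal means.

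Small RNA rows inside the other members were sparse. Of 13 snoRNA genes inside Rian, 3 averaged at least 1 FPKM, and Gm26922 was at 8.57, 1.42 and 2.34 FPKM in Ctrl, against 0, 0.440 and 0 FPKM in Gsk3sKO (log2 fold change -1.92, SE 0.52, adjusted p = 0.607). Gm25357, below the level for the test, went the other way, at 0 in all of Ctrl and at 1.095, 2.71 and 0.858 FPKM in Gsk3sKO. The 13 rows summed to 10.1, 5.675 and 10.1 FPKM in Ctrl, against 1.92, 3.59 and 14.6 FPKM in Gsk3sKO, with overlap. Of 14 microRNA genes inside Mirg, 2 averaged at least 1 FPKM and 0 were called. The snoRNA gene Gm25129 inside Snhg11 was at 18.98, 16.9 and 8.44 FPKM in Ctrl, against 3.58, 2.87 and 0 FPKM in Gsk3sKO, all below Ctrl (log2 fold change -2.53, SE 0.57, adjusted p = 0.435).

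Snhg11 itself (ENSMUSG00000044349, chr2:158375638-158386145, plus strand), a neuron-enriched snoRNA host that M21 files as protein-coding, was at 19.4, 23.9 and 11.3 FPKM in Ctrl, against 9.26, 20.2 and 11.7 FPKM in Gsk3sKO. Ctrl replicate 3 and Gsk3sKO replicate 3 were nearly equal, and the groups overlapped. Its log2 fold change was -0.39 (SE 0.33, 95% CI -1.16 to 0.37, adjusted p = 0.866). Snhg11-201 (5864 bases) made up 95.4% of the total in Ctrl and 95.3% in Gsk3sKO.

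Peg13 (ENSMUSG00000106847, chr15:72805600-72810324, minus strand), a paternally expressed RNA from an intron of Trappc9, was the steadiest member. It was at 51.6, 56.6 and 58.6 FPKM in Ctrl, against 58.9, 52.6 and 50.9 FPKM in Gsk3sKO. The highest library was 1.16 times the lowest, where the median over tested gene totals above 0 in each library was 1.9 times. This gave a log2 fold change of -0.04 (SE 0.13, 95% CI -0.34 to 0.26, adjusted p = 0.963). The single transcript has no intron.

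Kcnq1ot1 (ENSMUSG00000101609, chr7:143203458-143296549, minus strand), the paternal antisense RNA that silences genes around Kcnq1, was the lowest member per length. It was at 0.367, 0.700 and 0.296 FPKM in Ctrl, against 0.140, 0.412 and 0.929 FPKM in Gsk3sKO. Gsk3sKO held both the lowest and the highest library. Over its 93092 bases this stands for roughly 540 to 2600 fragments per library, so its place under 1 FPKM reflects level per length rather than few reads. It was not tested, and on the log2(FPKM + 1) scale the mean of Gsk3sKO minus that of Ctrl was 0.01. The strand setting of the counting is not given in the sources used here, so reads of Kcnq1ot1 and Kcnq1, and of Snhg14 and Ube3a, may not be fully apart. Peg13 is annotated as sense intronic, on the strand of Trappc9, so its reads and those of that intron may not be apart under any strand setting.

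The members tended to be low and high in the same libraries. Gsk3sKO replicate 1 was the lowest library for 8 of the 10 members, where it was the lowest for 9.93% of all tested gene totals. This was not particular to the members. Several of the other long noncoding RNAs tested, among them Gm26917, Rmst, Dlx6os1 and Ftx, were also lowest there, and others, such as 2900097C17Rik and Tug1, were not. Ctrl replicate 2 was the highest for 5 members and Gsk3sKO replicate 3 for 4, where these were the highest for 16.6% and 17.7% of tested gene totals. Peg13 went against this, with its highest value in Gsk3sKO replicate 1 and its lowest in Gsk3sKO replicate 3. Rian departed from it in part, with its lowest value in Ctrl replicate 3. The highest library was 3.09 times the lowest at the median over the members. These are counts over 10 genes that share their libraries, of which Meg3, Rian and Mirg also share a domain, and what moves with the library was not tested.

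Genes around the members did not pass the test. Of 44 neighbors named over the 7 loci, 43 were listed in the table and 24 were tested, 0 were called at an unadjusted p under 0.05 (limma), and their median log2 fold change was 0.00 (11 below 0). Around Snhg14 these included Snrpn, a splicing ribonucleoprotein gene whose promoter region starts the host transcript, at 316, 330 and 314 FPKM in Ctrl, against 302, 303 and 275 FPKM in Gsk3sKO, each below all of Ctrl (log2 fold change -0.13, SE 0.12, adjusted p = 0.876). Ube3a, named for its antisense position and after its values were seen, was at 20.4, 24.7 and 19.6 FPKM in Ctrl, against 18.96, 32.9 and 50.9 FPKM in Gsk3sKO (log2 fold change 0.55, SE 0.31, adjusted p = 0.792), and at 0.90 without Gsk3sKO replicate 1.

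In the Dlk1-Dio3 domain, Begain (log2 fold change -0.36, adjusted p = 0.811) and Ppp2r5c (0.17, adjusted p = 0.861) had the highest levels. Around Peg13 these were Trappc9, which encodes a trafficking complex subunit (0.01, adjusted p = 0.995), and Chrac1 (-0.18, adjusted p = 0.946). Nap1l4 (0.02) and Cd81 (0.00) led around Kcnq1ot1. Dpf2 (-0.49, adjusted p = 0.792) was among the highest near Malat1 and Neat1. The highest near Miat were Asphd2 (0.12) and Tpst2 (-0.31), and near Snhg11 Ralgapb (0.42, adjusted p = 0.792) and Ppp1r16b (0.39, adjusted p = 0.792). Besides Snrpn, 3 of the tested neighbors did not overlap between the groups: Ndn was lower in Gsk3sKO (named after its values were seen), and Ralgapb and Ppp1r16b were higher. Over all tested gene totals, 8.3% were lower and 3.71% higher without overlap, so these few cases are not read as a trait of the neighbors.

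Other long noncoding RNAs behaved much as the members did at the level of gene totals. Of 26 listed from a set of 32, 19 were tested and 0 were called, with a median log2 fold change of 0.02. The highest were 2900097C17Rik (169 FPKM on average, log2 fold change -0.15, adjusted p = 0.873) and Gm26917 (162 FPKM, -0.69, adjusted p = 0.779). Of other snoRNA hosts, 9 of 17 were tested with a median of -0.10. Where 5.2% of all tested gene totals fell, 1 of these 9 did. This was Epb41l4aos, at 5.53, 3.88 and 3.84 FPKM in Ctrl, against 0.657, 2.46 and 0 FPKM in Gsk3sKO (log2 fold change -1.58, SE 0.45, adjusted p = 0.607). Gas5, a growth-arrest RNA and the highest of these hosts, had a log2 fold change of -0.47 (SE 0.32, adjusted p = 0.825), and Snhg12 one of -0.10 (SE 0.27, adjusted p = 0.956).

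Of 29 genes for proteins known to bind these RNAs, all were tested and 3 were called, where 6.56% of all tested gene totals were. So few calls do not set these genes apart as a group. Their median log2 fold change was -0.02. Among 13 paraspeckle proteins, Hnrnpk, an RNA-binding protein, fell (200, 136 and 130 FPKM in Ctrl, against 112, 101 and 112 in Gsk3sKO, with a log2 fold change of -0.49, SE 0.18, adjusted p = 0.708). Tardbp, which encodes TDP-43, rose (17.1, 11.9 and 15.9 FPKM in Ctrl, against 48.8, 43.0 and 21.3 in Gsk3sKO, with a log2 fold change of 1.21, SE 0.30, adjusted p = 0.511). In both, the groups did not overlap. The call of Hnrnpk was lost without Ctrl replicate 1 (-0.29) or Gsk3sKO replicate 2 (-0.44), and its value was -0.13 with libraries rescaled to the same sum. Ewsr1, the second highest of this list, had a log2 fold change of -0.01 (SE 0.16, adjusted p = 0.998).

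Among 9 speckle and splicing proteins, 0 were called. Sf1, the branch point binder named above for Miat, was at 58.7, 66.3 and 46.6 FPKM in Ctrl, against 76.1, 84.4 and 55.0 FPKM in Gsk3sKO (log2 fold change 0.32, SE 0.20, adjusted p = 0.811), and Srrm1 had a log2 fold change of 0.28 (SE 0.15, adjusted p = 0.792). Of 7 chromatin-silencing genes, Ezh2, the methyltransferase of Polycomb complex PRC2, rose (1.98, 2.89 and 1.15 FPKM in Ctrl, against 2.69, 5.13 and 5.51 in Gsk3sKO, with a log2 fold change of 0.85, SE 0.34, adjusted p = 0.741), with Gsk3sKO replicate 1 inside the range of Ctrl. Its call was lost without Ctrl replicate 1 or 3 or Gsk3sKO replicate 2 or 3. Ehmt2 and Dnmt1, the highest of this list, had log2 fold changes of -0.05 (SE 0.15, adjusted p = 0.963) and -0.02 (SE 0.18, adjusted p = 0.993).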

How the data were processed

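The 6 RiboTag libraries, 3 Ctrl and 3 Gsk3sKO, were grouped by the submitters' labels. The authors deposited FPKM values per transcript and library, which the submitters' processing notes tie to HISAT2 2.1.0, SAMtools 1.9, StringTie 1.3.4d and GRCm38. Settings and annotation release: not given in the sources used here. The fold (a linear ratio), p-value and q-value columns that the authors deposited hold their own comparison and were not used. Of the columns with values of single libraries, 0 were omitted.

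Gene totals were sums of FPKM by gene identifier. The 10 members and all gene lists were chosen with earlier results of these data known. Transcripts were matched to GENCODE M21 (114332 of 115220 found), whose lengths and coordinates are used. Features with a mean of at least 1 FPKM were compared on log2(FPKM + 1) by limma (version 3.58.1, R 4.3.3, trended moderation of variances) over the whole table, 2-sided, with Benjamini-Hochberg adjustment. Log2 fold changes on this scale understate low genes. A feature was called at an unadjusted p under 0.05, and the text prints the adjusted p. The model was tested on simulated data. Exact permutation tests used scipy 1.17.1, with Python 3.11.15, numpy 2.4.6, pandas 2.3.3 and matplotlib 3.10.9. Depth came from the steps between low values and may be off by a factor of 2 or more, so fragment numbers are approximate and cover counting error only.

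Named by rule were all members, of their transcripts the one with the highest mean, the next where it made up 10% or more of the total and any with a mean of at least 1 FPKM and p under 0.05, and of other lists the 2 genes with the highest mean and any with p under 0.05. Some neighbors that this rule names are not reported here. Further transcripts, the small RNA genes and Ube3a were named after their values were seen. Alternatives were another pseudocount, filter, scaling or variance model, a replicate block and leaving out each library.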

Additional observations from a re-analysis of the deposited data

How the results depend on the processing

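Each count of called features was recomputed under other pseudocounts, filters, scalings and variance models and without each library. Rescaling every library to the same sum moved the median log2 fold change of all gene totals from -0.06 to 0.26, and it called 7.92% of all tested gene totals. Under it 1 member was called (Rian, 0.65), with 1 other long noncoding RNA, 4 neighbors and 5 binding partners. Peg13 and Snhg14 changed sign under it (0.32 and 0.14), and Peg13 did so with median ratio scaling (0.021). Without a filter on level, 5 member transcripts and 1 other long noncoding RNA were called, with a mean of at least 5 FPKM 1 member transcript and 0 snoRNA hosts, and without moderation 1 binding partner.

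Leaving out each library gave 0 to 1 called members, 1 to 4 called member transcripts, 0 to 1 other long noncoding RNAs, 1 to 2 snoRNA hosts, 0 to 2 neighbors and 1 to 4 binding partners. Of all tested features, 4.49% to 9.12% of gene totals and 4.1% to 7.96% of transcripts were called in these fits. The log2 fold change then ranged from -0.22 to 0.49 for Malat1, from -0.24 to 0.98 for Meg3, from -0.42 to 0.031 for Snhg14 and from -0.10 to 0.0025 for Peg13. The cause was not tested. The alternatives for single transcripts, for genes that are no members and for the snoRNA sum were chosen after seeing the data. Snhg14-202 was called in each fit that held it.

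Replicate numbers did not pair the libraries: the deviations of same-numbered libraries correlated at -0.03, -0.01 and -0.08. With a replicate block, 1 member transcript was called (Snhg14-202), and Snhg14-208 and Rian-211 were not. Depth limits what Mirg can show at its level.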
